A study of Mus musculus with 6 samples.

Results

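A set of 10 genes of the red cell lineage was followed through single-cell RNA libraries of c-Kit-enriched mouse BM. The genes were taken by symbol, and all 10 were found among the 32285 genes of the libraries: *Klf1*, *Car1*, *Car2*, *Ermap*, *Aqp1*, *Rhag*, *Epor*, *Blvrb*, *Hba-a1* and *Hbb-bt*. The cells came from 9 female BALB/c mice that were 10 weeks old at harvest. Of these, 3 mice were non-tumor-bearing (NTB), 3 carried 4T1 mammary tumors and received vehicle, and 3 carried 4T1 tumors and received brequinar (BRQ), an inhibitor of the pyrimidine synthesis enzyme DHODH, at 10 mg/kg daily by intraperitoneal injection from when tumors became measurable. 4T1 is a BALB/c mammary carcinoma line that was implanted into the mammary gland. BM was enriched for c-Kit+ cells with magnetic beads, and 1 mouse of each group was combined into each of 3 pools after staining with hashtag antibodies (B0301 for NTB, B0302 for vehicle, B0303 for BRQ). The comparisons ask how the tumor, and BRQ in tumor-bearing mice, change progenitor gene expression.

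Red cells arise when a progenitor commits to the erythroid lineage, answers erythropoietin, divides several times while it builds its membrane and heme, and fills with hemoglobin. *Klf1* encodes a zinc finger factor that turns on many erythroid genes, among them the adult beta-globin genes, and *Epor* encodes the erythropoietin receptor. *Car1* and *Car2* are carbonic anhydrases, which interconvert carbon dioxide and bicarbonate. *Rhag*, *Ermap* and *Aqp1* encode proteins of the red cell membrane, *Aqp1* being a water channel that endothelial cells also make. *Blvrb* encodes a biliverdin reductase that is abundant in red cells. *Hba-a1* and *Hbb-bt* are adult alpha- and beta-globin genes, each with a close neighbor of the same type, *Hba-a2* and *Hbb-bs*.

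The start regions of these genes are shown because the members differ in the short motifs they hold there. The 100 bases before the RefSeq start were searched on both strands in the promoter table of the GRCm38.p6 build, which had an entry for 8 of the 10 genes; *Car1* and *Car2* had none. The GATA motif was searched as AGATAA, which reads TTATCT on the other strand, and also in the form TGATAA, which there reads TTATCA. The CACCC motif was searched as CCACCC, read as GGGTGG on the other strand, and the TATA motif as ATATAA, read there as TTATAT. Matches are in capitals and all sequences are given 5′ to 3′ on the strand of the gene, with their GRCm38.p6 coordinates. For the globins, 30 bases around each match are printed. For the other genes only bases outside the annotated gene are printed. The *Klf1*, *Ermap* and *Rhag* stretches therefore end at -55, -17 and -24 from the RefSeq start.
Klf1, chr8:84901882-84901927, plus strand: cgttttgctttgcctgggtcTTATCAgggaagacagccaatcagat
Ermap, chr4:119190012-119190095, minus strand: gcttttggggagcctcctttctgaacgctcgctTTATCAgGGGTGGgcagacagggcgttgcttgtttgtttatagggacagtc
Rhag, chr17:40811049-40811125, plus strand: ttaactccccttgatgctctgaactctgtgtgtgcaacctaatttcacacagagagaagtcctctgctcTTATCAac
Epor, chr9:21963577-21963676, minus strand: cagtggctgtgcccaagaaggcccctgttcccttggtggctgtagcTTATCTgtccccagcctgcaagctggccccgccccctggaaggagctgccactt
Aqp1, chr6:55336199-55336298, plus strand: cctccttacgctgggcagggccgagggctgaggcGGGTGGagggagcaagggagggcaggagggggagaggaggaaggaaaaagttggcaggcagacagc
Hba-a1, chr11:32283599-32283628, plus strand: ccaagggcgtgtCCACCCtgcctggaggac
Hba-a1, chr11:32283632-32283661, plus strand: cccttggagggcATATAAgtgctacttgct
Hbb-bt, chr7:103813935-103813964, minus strand: ccagcattgggtATATAAagctgagcaggg
A GATA motif was found in 4 of the 8 genes (*Klf1*, *Ermap*, *Rhag* and *Epor*), against 6.17% of the 32851 promoters in the table. The CACCC motif was in 3 (*Ermap*, *Aqp1* and *Hba-a1*, against 14.0%) and the TATA motif in 2, both globins (against 3.74%). No match was found in the 100 bases of *Blvrb*. These are matches of letters only. In the GRCm38 annotation *Car1* (chr3:14766216-14808368, minus strand) and *Car2* (chr3:14886273-14900770, plus strand) are neighbors on chromosome 3, and *Blvrb* lies at chr7:27447978-27466144 on the plus strand.

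The 3 pools held 13750, 11441 and 14297 barcodes with 1.01e+08 to 1.36e+08 gene UMIs each, and 32762 barcodes passed the limits of 500 to 7500 genes and at most 15% mitochondrial UMIs. Barcodes of different pools shared 38 to 48 sequences per pair. Clustering without the 10 genes, *Hba-a2* and *Hbb-bs* gave 19 clusters, of which 5 were left unnamed. One cluster was named erythroid-like, with 1793 barcodes (5.47% of those kept, 692, 500 and 601 by pool) and a median of 19211 UMIs. Of the 14 erythroid marker genes listed for this purpose, 13 were in the libraries, and all 13 were higher there than in the other barcodes. *Gata1* stood at 1.94 against 0.0479 UMIs per 10000 and *Hemgn* at 2.97 against 0.0573. Late markers were low: *Slc4a1*, the anion exchanger of the red cell membrane, at 0.191 and *Alas2*, the first enzyme of erythroid heme synthesis, at 0.0503. The BM preparation used red cell lysis and kept c-Kit+ cells.

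Among the commitment genes in the erythroid-like cells, the transcription factor *Klf1* was at 2.69, 2.60 and 2.67 UMIs per 10000 in pools 1, 2 and 3, nearly level across pools. The receptor *Epor* was at 1.17, 1.25 and 1.31. The carbonic anhydrases had the highest counts, *Car2* at 15.9, 16.2 and 15.2 and *Car1* at 10.7, 10.2 and 9.26. These are counts of RNA 3′ ends and carry no gene length. Of the membrane genes, *Ermap* was at 5.02, 5.30 and 5.63, *Aqp1* at 4.02, 4.17 and 4.24, and *Rhag* at 2.51, 2.61 and 2.56. *Blvrb* ran from 5.73 in pool 1 through 4.81 to 3.73 in pool 3, and *Hba-a1* likewise from 4.27 through 3.50 to 2.80, the 2 members that varied most among pools. *Hbb-bt* was at 0.334, 0.308 and 0.330, far below its neighbor *Hbb-bs*, which was at 7.08 over all pools. Each pool is a mix of 3 mice in unequal numbers.

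The globin genes were spread over cells in another way than the commitment genes. *Car2* was counted in 99.3% of erythroid-like cells and *Klf1* in 95%, and the tenth of cells with the most UMIs (179 cells) held 22.1% of *Car2* and 22.8% of *Klf1* UMIs. *Hba-a1* was at 0 in 47.5% of the cells, reached 151 UMIs in one, and had 62.8% of its UMIs in the top 179 cells. *Hbb-bt* was at 0 in 80.2%, with 83.8% in the top 179. The 4 globin genes together had a median of 4 UMIs per cell, an upper quartile of 23 and a maximum of 492. After each cell was thinned to 1500 UMIs, 84.1% of erythroid-like cells had a *Car2* UMI, 33.2% a *Klf1* UMI, 25.2% an *Hba-a1* UMI and 3.87% an *Hbb-bt* UMI.

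Erythroid-like barcodes without a doublet mark (1620) were split further, again without the 10 genes and the 2 paralogs, and the 7 sub-clusters were ordered by *Hemgn*. From the first to the last, *Hba-a1* went from 0.0311 to 12.6 UMIs per 10000 and *Hbb-bt* from 0.0125 to 0.996. *Kit*, the receptor used for the enrichment, went the other way, from 2.20 to 0.164. *Car1* and *Car2* parted in the later sub-clusters. Over sub-clusters 1, 2 and 4, *Car1* was at 13.6, 15 and 15.1 and *Car2* at 6.48, 10.4 and 17.0. In sub-clusters 5, 6 and 7, *Car1* was at 10.7, 6.10 and 5.62 and *Car2* at 16.6, 20.9 and 21.9. *Klf1* went from 1.76 to 3.46, *Epor* from 0.804 to 1.58, *Aqp1* from 4.02 to 5.61, *Blvrb* from 2.45 to 6.94 and *Rhag* from 0.941 to 4.05. *Hba-a1* thus differed by far more across the sub-clusters than any commitment gene. Sub-cluster 3, with 29 cells, was led by the granule genes *Prtn3*, *S100a9* and *Elane* and had lower levels of *Klf1*, *Car1* and *Ermap* (0.693, 3.02 and 1.24). The order rests on 1 gene and is a description with no test.

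**Figure D1:**
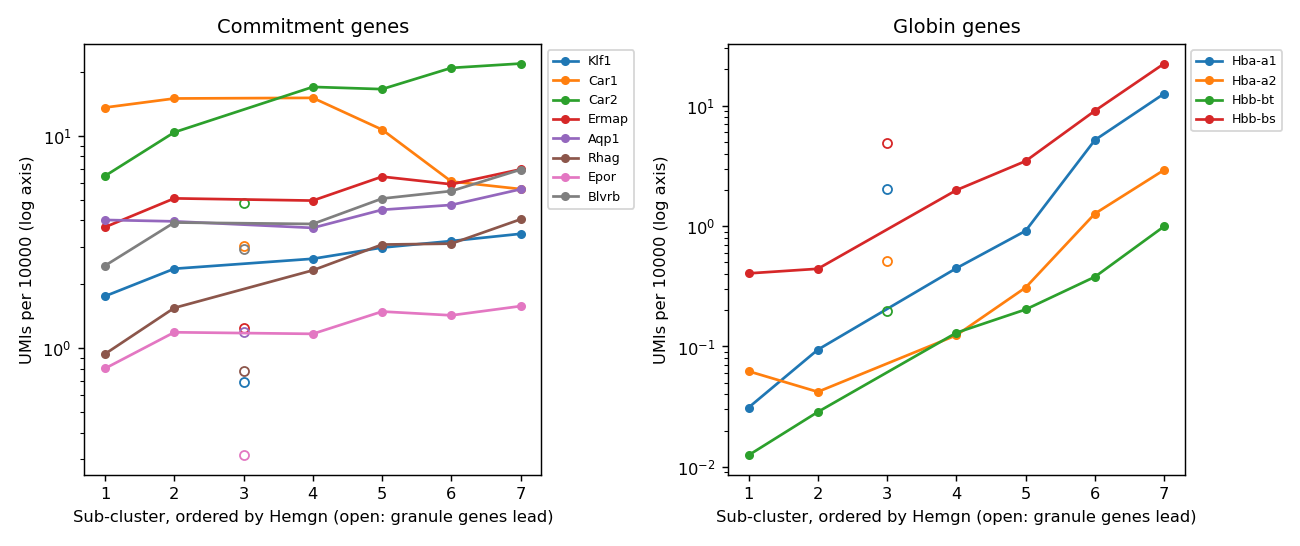
UMIs per 10000 (log axes) of the 8 commitment genes (left) and the 4 globin genes (right) in 7 sub-clusters of erythroid-like cells ordered by *Hemgn*, all pools together. Filled points are joined by lines for reading only; open points mark sub-cluster 3 (29 cells led by granule genes). *Hba-a1* goes from 0.0311 to 12.6 while *Car1* goes from 13.6 to 5.62.

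Outside the erythroid-like cells, the 10 genes were low in most classes. In GMP-like cells, the granulocyte-monocyte progenitors, *Klf1* was at 0.0123 and *Car2* at 0.0537 UMIs per 10000, which is 0.462% and 0.342% of their erythroid level. *Car1* UMIs were 39.2% of *Car1* and *Car2* UMIs together in GMP-like cells (95% Clopper-Pearson interval 36.3% to 42.2%) and 38.9% in erythroid-like cells, so the interval of the first holds the second. The intervals on shares of UMIs or cells here and below cover counting error only. HSC/MPP-like cells, the stem and multipotent progenitors, differed. *Car2* was at 1.80, 1.69 and 1.63 in their 3 pools, 10.9% of its erythroid level, and was counted in 62.7% of the cells at a median of 7580 UMIs. In GMP-like cells, at a median of 11972 UMIs, 6.12% had one. After thinning to 1500 UMIs the shares were 25.0% and 0.789%. *Car1* made up 3.08% (2.49% to 3.77%) of the 2 carbonic anhydrases in HSC/MPP-like cells, and *Klf1* 1.31% of *Klf1* and *Car2* UMIs against 14.5% in erythroid-like cells. *Car2* in the stem and multipotent class was therefore not in the ratio that it has in erythroid-like cells.

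*Aqp1* was at 2.15 UMIs per 10000 in the stromal/endothelial-like class, 51.9% of its erythroid level, in 45.0% of only 40 barcodes (interval 29.3% to 61.5%). *Klf1*, *Car1*, *Rhag* and *Hbb-bt* had no UMI in those 40 barcodes, whose median was only 2801 UMIs, so low levels would mostly be missed there. *Blvrb* was at 1.45 in macrophage-like cells, in 34.3% of them at a median of only 2213 UMIs, and in 28.2% after thinning (206 of 327 cells were deep enough), against 3.20% in neutrophil-like cells. *Epor* was at 0.313 in the stromal/endothelial-like class, from 7 UMIs. Unnamed cluster 10, led by *Pf4*, *Prss34* and *Mcpt8*, a mix of megakaryocyte and basophil genes, had *Klf1* at 0.416, *Aqp1* at 0.888 and *Epor* at 0.225, while *Rhag* was at 0.0465. Unnamed cluster 11 had *Klf1* at 0.297, *Car1* at 1.49 and *Car2* at 1.98, and 72.1% of its barcodes carried a doublet mark from Scrublet.

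**Figure D2:**
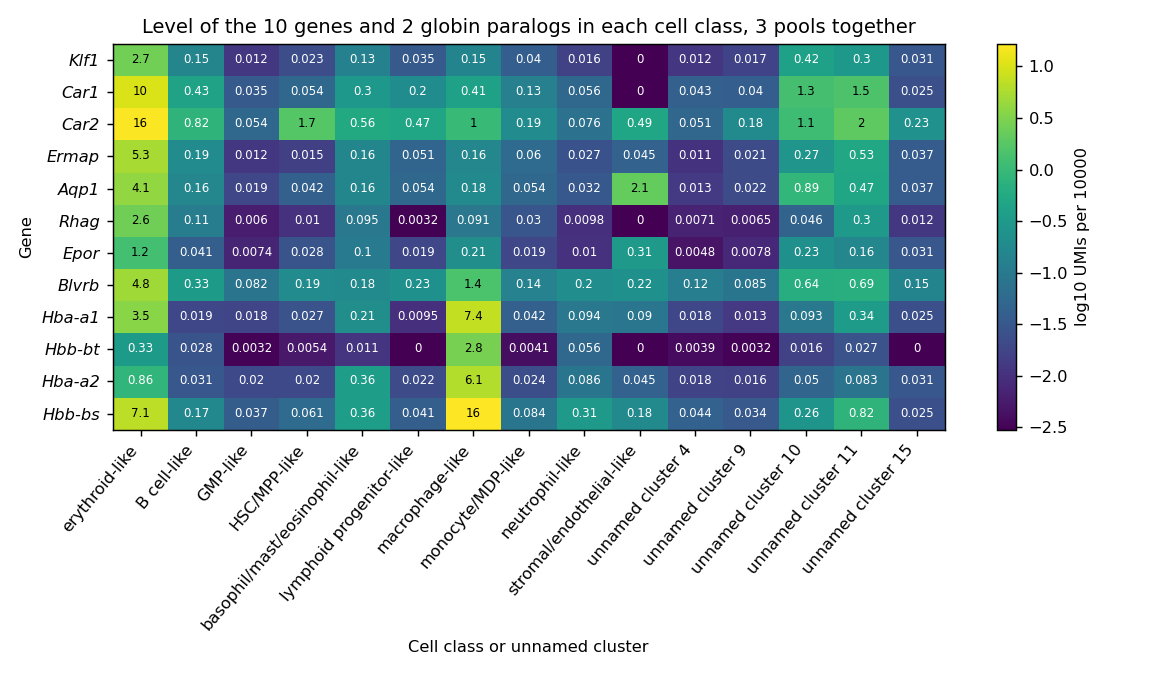
UMIs per 10000 of the 10 genes and the paralogs *Hba-a2* and *Hbb-bs* (rows) in each cell class or unnamed cluster (columns), 3 pools together, colored on a log10 scale with the value printed in each box. The erythroid-like column is highest for all but the globins, which are highest in macrophage-like cells, and *Car2* stands out in HSC/MPP-like cells (1.71). Of the 4688 globin UMIs in macrophage-like cells, 2953 and 1169 were in 2 of 327 barcodes.

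In macrophage-like and neutrophil-like cells a large share of the globin UMIs sat in single barcodes. Macrophage-like cells had the highest *Hba-a1* level of any class, 7.41 UMIs per 10000 against 3.55 in erythroid-like cells, yet 698 of their 1061 *Hba-a1* UMIs were in 1 of 327 barcodes, and the level without it was 2.54. In neutrophil-like cells 169 of 415 *Hba-a1* and 188 of 246 *Hbb-bt* UMIs were likewise in 1 barcode. In GMP-like cells they were spread more thinly, with 1.80% of 9353 cells holding the 218 *Hba-a1* UMIs and at most 30 in one cell. The split of the alpha-globin pair in erythroid-like cells differed from that in most other classes. *Hba-a1* made up 80.5% of the alpha-globin UMIs in erythroid-like cells (81.6%, 79.4% and 79.7% by pool), but 54.9% in macrophage-like cells (interval 52.7% to 57.2%), 52.1% in neutrophil-like cells (48.6% to 55.7%) and 47.0% in GMP-like cells (42.4% to 51.6%). These intervals treat UMIs as separate draws, although 1 barcode each held much of the macrophage-like and neutrophil-like *Hba-a1*. Shares without those barcodes are not given here. The *Hba-a1* share was also lower in HSC/MPP-like (57.0%, 45.3% to 68.1%), monocyte/MDP-like (64.1%, 58.4% to 69.4%) and basophil/mast/eosinophil-like cells (37.3%, 27.9% to 47.4%). In pool 1 the intervals of HSC/MPP-like (71.4%, 47.8% to 88.7%), monocyte/MDP-like (75.6%, 67.2% to 82.8%) and basophil/mast/eosinophil-like cells (75%, 34.9% to 96.8%) held the erythroid share of that pool, as did that of macrophage-like cells in pool 2 (63.3%, 43.9% to 80.1%). *Hbb-bt* made up 4.40% of the adult beta-globin UMIs in erythroid-like cells, 14.4% in macrophage-like and 15.4% in neutrophil-like cells, where the 1 barcode with 188 *Hbb-bt* UMIs weighs heavily. The *Hbb-bt* share was 14.5% in B cell-like cells (6.86% to 25.8%) and 7.94% in GMP-like cells (5.71% to 10.7%), the latter above the erythroid share in pool 3 (11.4%) and near it in pools 1 and 2 (4.81% and 5.26%). The interval held the erythroid share in HSC/MPP-like (8.04%, 3.74% to 14.7%) and monocyte/MDP-like cells (4.60%, 2.79% to 7.09%). Cluster 11 kept the erythroid shares, at 80.4% and 3.21%. The sequences of the pairs are close: of the last 300 windows of 50 bases in the *Hba-a1* transcript, 83.3% also occur in *Hba-a2*, and of those in *Hbb-bt* 46.7% occur in *Hbb-bs*, so reads shared by both copies leave the split within each pair uncertain.

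Erythroid-like barcodes were rarely given to a mouse. HTODemux called 72.8% of them negative (79.2%, 77.2% and 61.9% by pool) against 38.3% of the other kept barcodes (36.6%, 50.8% and 29.9%), and in each pool the erythroid share was the higher one. The share was 38.1% in HSC/MPP-like, 31.9% in GMP-like and 53.8% in neutrophil-like cells. Negative erythroid-like barcodes had a median of 1228 hashtag UMIs and the 375 called singlets 2013. The 2 sets also differed in content. Negative barcodes held GMP markers at 10.5 and neutrophil markers at 36.2 UMIs per 10000, and singlets at 38.6 and 136, and Scrublet marked 3.83% of negative and 22.4% of singlet barcodes. *Hba-a1* was at 4.21 in negative and 1.94 in singlet barcodes, *Car2* at 17.2 and 12.6, *Klf1* at 2.89 and 2.17, and *Car1* at 10.2 and 10.6. The negative share was 54.4% and 62.5% in sub-clusters 1 and 2, 10.3% in sub-cluster 3, which granule genes lead, and 80.6% to 89.4% in sub-clusters 4 to 7. The comparisons between mice below therefore rest on 20.9% of the erythroid-like barcodes, and their part in each result was not tested.

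**Figure D3:**
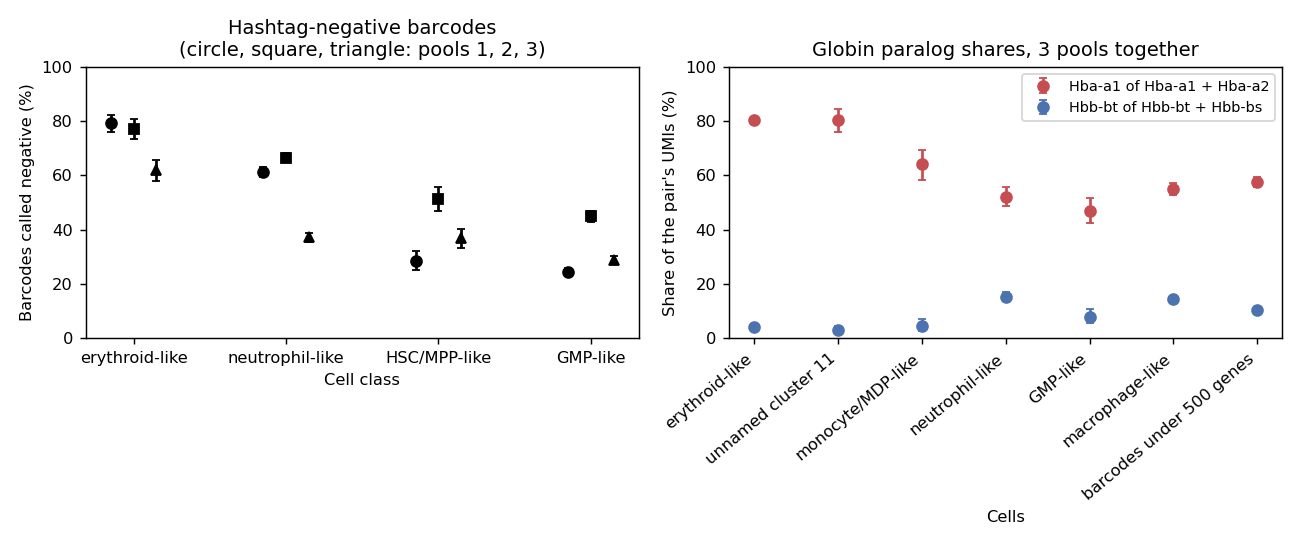
Left, share of barcodes that HTODemux called negative (%) in 4 cell classes, 1 point per pool with 95% Clopper-Pearson intervals; erythroid-like barcodes are at 61.9% to 79.2%. Right, share of the pair's UMIs (%) held by *Hba-a1* (red) and *Hbb-bt* (blue) in each set of cells, 3 pools together, with 95% Clopper-Pearson intervals. *Hba-a1* is at 80.5% in erythroid-like and 54.9% in macrophage-like cells, where 1 of 327 barcodes held 2953 of 4688 globin UMIs.

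For the comparisons, counts were summed per mouse and tested with edgeR's quasi-likelihood test across all genes of the class, with Benjamini-Hochberg adjustment and a threshold of 0.05. Levels per mouse are CPM, library-size-scaled counts with TMM factors, and are given in the order of pools 1, 2 and 3. Each mouse had between 9 and 111 erythroid-like singlets, and vehicle mouse 2, with 9, was left out of the erythroid fit, so that the vehicle group there had 2 mice. The 3 comparisons share mice. Pool number is also a replicate number, and values fitted with pool as a block are given where they change a call.

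In erythroid-like cells, *Hba-a1* was the 1 member called. It was at 262, 130 and 162 CPM in NTB mice, at 316 and 534 CPM in the vehicle mice of pools 1 and 3, and at 207, 141 and 108 CPM in BRQ mice. Both vehicle mice were above all others. It was higher in vehicle than in NTB mice by 1.24 on the log2 scale (SE 0.24, adjusted p = 0.00291), lower in BRQ than in vehicle mice by 1.38 (log2 fold change -1.38, SE 0.23, adjusted p = 0.00424), and BRQ and NTB mice overlapped (-0.14, adjusted p = 0.923). The change kept its size but lost its call, in both comparisons, with DESeq2 (1.22 and -1.47, adjusted p = 0.462 and 0.375), without Scrublet-marked barcodes (1.23 and -1.44, adjusted p = 0.672 and 0.699) and at cluster resolution 1.6 (1.45 and -1.55, adjusted p = 1.000 and 0.873). It was smaller and uncalled with the members kept for clustering (0.94 and -0.60, adjusted p = 0.246 and 0.787) and with equal cells per mouse (0.89 and -0.90, adjusted p = 0.504 and 0.396), and called with pool as a block (1.09 and -1.24, adjusted p = 0.00107 and 0.000372). In vehicle mouse 3, 67 and 51 of 156 *Hba-a1* UMIs came from 2 of 15 cells, and the CPM before TMM scaling was 515 with and 314 without the first. Without vehicle mouse 3 the change was 0.88 between vehicle and NTB (adjusted p = 0.141) and -1.01 between BRQ and vehicle mice (adjusted p = 0.131); this leaves 1 vehicle mouse, assumed to vary like the other groups. Without NTB mouse 2 the change between vehicle and NTB was 1.07 (adjusted p = 0.0564). When tags were instead compared with their pool median, which kept all 3 vehicle mice, *Hba-a1* was at 172, 155 and 131 CPM in vehicle and 188, 107 and 161 CPM in NTB mice (0.06, adjusted p = 0.983), and the groups overlapped. Between BRQ and vehicle mice this reading gave -0.27 (adjusted p = 0.846). Pooled over mice, sub-clusters 6 and 7, with the highest *Hba-a1*, held 15 of 42 vehicle, 29 of 136 NTB and 17 of 113 BRQ singlets. NTB mouse 3 gave 93 of the 136 and vehicle mouse 1 gave 22 of the 42. The spread of these shares between mice is not given here. These counts include vehicle mouse 2 and leave out Scrublet-marked barcodes, unlike the fit. GMP markers moved with the groups too: they were at 31.1, 20.9 and 21.4 UMIs per 10000 in the erythroid-like cells of NTB mice, at 78.0 and 69.5 in the 2 vehicle mice and at 50.9, 30.6 and 61.3 in BRQ mice. Neutrophil markers summed to 299 and 236 in the vehicle mice, above the BRQ mice (101, 91.9 and 40.6), and the NTB mice had 245, 48.0 and 148. The part of the sub-clusters and of these markers in the globin values was not tested. Vehicle and NTB mice differed in 102 of 7773 genes tested (1.31%), all higher in vehicle, BRQ and vehicle mice in 27 (0.347%, 26 lower in BRQ), and BRQ and NTB mice in 23 (0.296%).

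The paralogs moved as *Hba-a1* did. *Hba-a2* differed by 1.51 (adjusted p = 0.00101) between vehicle and NTB and by -1.70 (adjusted p = 0.00209) between BRQ and vehicle mice, and *Hbb-bs* by 1.12 (adjusted p = 0.0224) and -1.20 (adjusted p = 0.0277). Both lost these calls where edgeR called 0 genes of the class: at resolution 1.6 in both comparisons (250 and 368 genes at an unadjusted p under 0.05), between BRQ and vehicle mice without Scrublet-marked barcodes (423) or with tags over the pool median (676), and between vehicle and NTB mice with both of these changes (365). With the members kept for clustering edgeR called 1 gene between BRQ and vehicle mice, so the paralogs did not both keep that call. Their calls under the other settings are not given here. *Hbb-bt* was at 22.1, 16.7 and 16.5 CPM in NTB, 31.4 and 13.7 CPM in vehicle and 4.48, 8.48 and 34.7 CPM in BRQ mice, with adjusted p-values of 0.730 to 0.905. Its highest and its lowest mouse were both in the BRQ group.

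None of the 8 commitment genes was called in erythroid-like cells, with changes between -0.52 and 0.40 on the log2 scale. Of the 8, *Klf1*, *Car1*, *Aqp1* and *Epor* did not overlap between BRQ and NTB mice. Over all genes tested, 1010 of 7773 (13%) did not. Between BRQ and vehicle mice *Car1* alone of the 8 did not overlap, against 2054 of the 7773 genes. Between vehicle and NTB mice all of the 8 overlapped, while 1836 of the 7773 genes did not. *Aqp1* was at 443, 408 and 390 CPM in NTB mice and at 275, 320 and 262 CPM in BRQ mice (-0.52, SE 0.14, adjusted p = 0.138). *Car1* was at 876, 1063 and 888 CPM in NTB and at 1366, 1153 and 1207 CPM in BRQ mice (0.40, SE 0.14, adjusted p = 0.331). With pool as a block both passed the threshold, *Aqp1* at -0.50 (adjusted p = 0.00811) and *Car1* at 0.39 (adjusted p = 0.0138), as did *Car2* at -0.34 (adjusted p = 0.0285, 0.453 without the block). With tags over the pool median *Aqp1* was also called (-0.47, adjusted p = 0.0163), and *Car1* (0.25, adjusted p = 0.439) and *Car2* (-0.38, adjusted p = 0.168) were not. *Car1* and *Car2* also parted over the sub-clusters. The part of the sub-clusters and of GMP markers in these values was not tested. The fit with the block called 141 genes where the fit without it called 23, and 87 against 27 between BRQ and vehicle mice. *Car2* was at 1669, 1445 and 1221 CPM in NTB, 1229 and 1324 CPM in vehicle and 1282, 1093 and 1031 CPM in BRQ mice, which overlapped. *Klf1* was at 310, 249 and 210 CPM in NTB, 197 and 253 CPM in vehicle and 201, 210 and 208 CPM in BRQ mice. The lowest NTB and the highest BRQ mouse were both at 210 CPM after rounding. *Epor* was at 108, 104 and 112 CPM, 86.0 and 130 CPM, and 95.6, 94.5 and 98.3 CPM in the same order. *Ermap*, *Rhag* and *Blvrb* overlapped between groups in all 3 comparisons, with adjusted p-values of 0.677 or more.

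**Figure D4:**
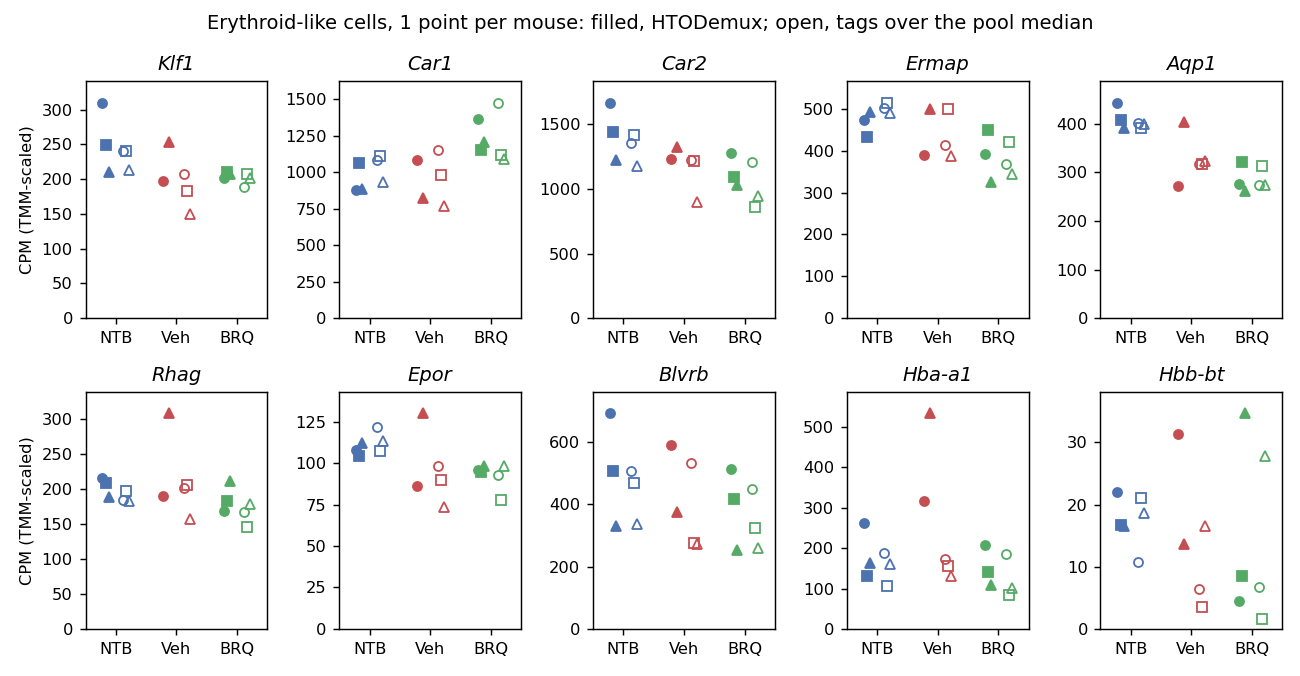
TMM-scaled CPM of the 10 genes in erythroid-like cells, 1 point per mouse (circle, square and triangle for pools 1, 2 and 3; NTB blue, vehicle red, BRQ green). Filled points use HTODemux calls and open points tags over the pool median, and *Hba-a1* is above all other mice in the 2 filled vehicle points (316 and 534) and among them in the 3 open ones (172, 155 and 131).

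Of the other erythroid genes, listed by role, few were called in erythroid-like cells. None of 7 heme synthesis genes tested, 8 erythroid transcription factors, 13 red cell membrane genes, 9 iron and heme handling genes or 5 genes of the erythropoietin signal was called in any of the 3 comparisons. Median changes between vehicle and NTB mice were 0.04, -0.26, 0.09, 0.04 and -0.67 in that order, against -0.02 over all 7773 genes and -0.04 over the 10 members. Between BRQ and vehicle mice they were -0.44, 0.15, -0.33, -0.13 and 0.36, against 0.00 over all genes and -0.18 over the members. In that comparison none of the 7 heme synthesis genes had a value above 0, and 3 had an unadjusted p under 0.05, while of all 7773 genes 3927 had a value above 0 and 594 an unadjusted p under 0.05. The ferritin genes *Fth1* and *Ftl1*, which store iron, were at means of 4033 and 1500 CPM in vehicle and 3925 and 1482 CPM in NTB mice. Of the heme synthesis genes, *Alad* and *Cpox* were at means of 552 and 405 CPM in NTB, 527 and 433 CPM in vehicle and 387 and 399 CPM in BRQ mice. The transcription factor genes *Lmo2* and *Bcl11a* were at 308 and 485 CPM, 288 and 387 CPM, and 309 and 435 CPM in the same order. Of the membrane genes, *Rhd* was at 162, 161 and 107 CPM and the ankyrin gene *Ank1* at 114, 112 and 89.7 CPM. *Kit* was at a mean of 61.2 CPM in vehicle and 124 CPM in NTB mice (-0.92, adjusted p = 0.0948), and *Pim1* at 87.5 and 45.1 CPM (0.87, adjusted p = 0.128).

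In HSC/MPP-like cells, *Car2* was lower in both tumor-bearing groups. It was at 263, 309 and 264 CPM in NTB mice, 158 and 162 CPM in the vehicle mice of pools 1 and 3, and 208, 166 and 120 CPM in BRQ mice. All 3 NTB mice were above every tumor-bearing mouse, and vehicle and BRQ mice overlapped. The log2 fold change was -0.80 (SE 0.16, adjusted p = 0.00214) between vehicle and NTB mice, -0.76 (SE 0.13, adjusted p = 0.000587) between BRQ and NTB mice, and 0.04 (adjusted p = 1.000) between BRQ and vehicle mice. With tags over the pool median, which kept all 9 mice, it was at 239, 288 and 249 CPM in NTB, 154, 173 and 153 CPM in vehicle and 191, 143 and 128 CPM in BRQ mice, without overlap of NTB and tumor-bearing mice (adjusted p = 0.000131 and 2.32e-05). Without vehicle mouse 1, which leaves 1 vehicle mouse, the first value was -0.77 (adjusted p = 0.281). With the filter read as 500 to 7500 UMIs the values against NTB were -0.51 (adjusted p = 0.607) for vehicle and -0.57 (adjusted p = 0.219) for BRQ mice. In this class 129 of 9945 genes (1.30%) differed between vehicle and NTB, 4 (0.0402%) between BRQ and vehicle and 108 (1.09%) between BRQ and NTB mice. With pool as a block these were 215, 16 and 297.

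Only *Car1*, *Car2* and *Blvrb* of the 10 members passed the filter on low counts in HSC/MPP-like cells, and the other 2 were not called. *Blvrb* was at 34.7, 14.4 and 22.9 CPM in NTB, 21.5 and 19.4 CPM in vehicle and 18.1, 13.2 and 17.2 CPM in BRQ mice, with adjusted p-values of 0.516 or more. Among the listed genes, *Kit* fell along with *Car2*, by 0.57 in vehicle (log2 fold change -0.57, adjusted p = 0.0130) and by 0.51 in BRQ mice (-0.51, adjusted p = 0.00743) against NTB mice. *Nfe2*, an erythroid and megakaryocyte transcription factor, was lower in vehicle mice (-0.55, adjusted p = 0.0325). *Pim1*, a kinase gene induced by cytokine signals, was higher in vehicle (0.94, adjusted p = 6.52e-05) and BRQ mice (0.71, adjusted p = 0.00101). *Hbb-bs* was lower in both (-2.84, adjusted p = 0.0339, and -2.75, adjusted p = 0.00736), at means of 23.4 CPM in NTB, 1.88 in vehicle and 2.97 in BRQ mice. Of the 103 *Hbb-bs* UMIs of the whole class, 37 were in 1 barcode. Its mouse is not given here, and its part in the *Hbb-bs* calls was not tested. In NTB mouse 2, 12 of the 13 *Hba-a1* UMIs of this class were in 1 of 87 cells.

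In the myeloid cells, GMP-like and neutrophil-like together, *Blvrb* stepped down across the groups. It was at 20.6, 16.1 and 14.1 CPM in NTB, 11, 10.1 and 8.98 CPM in vehicle and 7.40, 6.67 and 5.33 CPM in BRQ mice, and no 2 groups overlapped. The log2 fold change was -0.67 (SE 0.18, adjusted p = 0.00968) between vehicle and NTB, -0.65 (SE 0.17, adjusted p = 0.0480) between BRQ and vehicle, and -1.32 (SE 0.17, adjusted p = 0.000435) between BRQ and NTB mice. The step between BRQ and vehicle was near the threshold and was lost without any 1 of the 3 vehicle or 3 BRQ mice or NTB mouse 2 (-0.53 to -0.76, adjusted p = 0.0548 to 0.215) and with DESeq2 (-0.66, adjusted p = 0.0547). With the filter read as UMIs all 3 calls were lost: the value was 0.30 between vehicle and NTB (adjusted p = 0.768), -0.86 between BRQ and vehicle (adjusted p = 1.000) and -0.56 between BRQ and NTB mice (adjusted p = 0.513). Changes were common in this class: 37.0% of 11379 genes were called between vehicle and NTB, 5.26% between BRQ and vehicle and 25.3% between BRQ and NTB mice. With pool as a block, 1246 genes were called between BRQ and vehicle mice instead of 599. These counts mix 2 cell classes whose proportions can differ between mice, which was not tested.

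**Figure D5:**
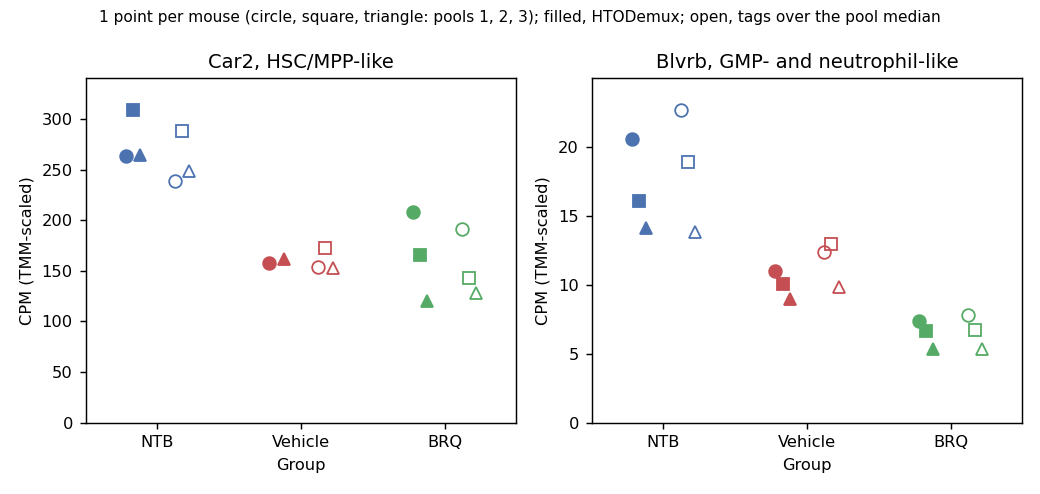
TMM-scaled CPM of *Car2* in HSC/MPP-like cells (left) and *Blvrb* in GMP-like and neutrophil-like cells (right), 1 point per mouse, NTB blue, vehicle red, BRQ green. Filled points use HTODemux calls and open points tags over the pool median. For *Car2* the 3 filled NTB mice sit between 263 and 309, above the tumor-bearing mice; for *Blvrb* the BRQ mice sit between 5.33 and 7.40, below all others.

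In the myeloid cells 7 of the 10 members passed the filter, and of these *Blvrb* alone was called. *Car2* was between 3.24 and 7.46 CPM in the 9 mice and overlapped in every comparison. *Hba-a1* was at 3.28, 2.05 and 4.76 CPM in NTB, 1.84, 0.405 and 1.66 CPM in vehicle and 6.26, 0.813 and 12.7 CPM in BRQ mice. In BRQ mouse 3, 169 of its 191 UMIs were in 1 of 1186 cells, and in BRQ mouse 1, 63 of 88 were in 1 of 1403; without these cells the CPM before TMM scaling was 1.68 and 1.86. The fits did not take them out: BRQ against vehicle gave 2.06 (adjusted p = 0.109), and 2.17 (adjusted p = 0.00192) with pool as a block, which also called *Hba-a1* (-1.30, adjusted p = 0.0321) and *Car1* (-1.02, adjusted p = 0.0179) between vehicle and NTB mice. Among the iron genes, 5 of 10 were called between vehicle and NTB mice. *Tfrc*, the transferrin receptor, rose by 0.84 (adjusted p = 0.000307), *Fth1* by 0.80 (adjusted p = 0.000221), *Slc11a2*, an iron transporter, by 0.81 (adjusted p = 0.0170) and *Ftl1* by 0.44 (adjusted p = 0.00919), and the heme exporter gene *Flvcr1* was lower (-0.83, adjusted p = 0.0137). Of the heme synthesis genes, *Cpox* (0.73, adjusted p = 0.000898) was higher and *Ppox* (-0.66, adjusted p = 0.00328) lower. The transcription factor genes *Nfe2* (-0.60, adjusted p = 0.00118) and *Ldb1* (-0.43, adjusted p = 0.0214) were lower, *Pim1* was higher (1.55, adjusted p = 0.00113) and the kinase gene *Jak2* lower (-0.45, adjusted p = 0.0386). *Tfrc* and *Cpox* were lower in BRQ than in vehicle mice (-0.60, adjusted p = 0.0147, and -0.46, adjusted p = 0.0386), and *Nfe2* was higher (0.48, adjusted p = 0.0215). Between BRQ and NTB mice, 4 of the 10 iron genes were called: *Fth1* (0.86), *Ftl1* (0.43) and *Abcb10* (0.29) were higher and *Flvcr1* (-0.90) lower. These list genes moved in a class where 37.0% and 25.3% of all genes were called against NTB mice.

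The share of erythroid-like cells among the singlets of a mouse was 2.89%, 2.98% and 4.54% in NTB mice, 1.40%, 2.36% and 1.19% in vehicle mice and 2.64%, 1.98% and 1.37% in BRQ mice. All NTB mice were above all vehicle and BRQ mice, whose ranges overlapped. This separation was lost without Scrublet-marked barcodes (vehicle mouse 2 at 2.49%, NTB mouse 1 at 2.14%), at resolution 1.6 (2.36% and 2.17%), with the members kept for clustering (BRQ mouse 1 at 3.66%, NTB mouse 1 at 3.25%), with tags called from the ratio of a barcode's tags and with the filter read as UMIs, and it held with tags over the pool median. The means were 3.47% ± 0.925, 1.65% ± 0.621 and 2.00% ± 0.640 (SD, n = 3 each). By a two-sided exact permutation test over mice, p was 0.10 for vehicle and for BRQ against NTB (adjusted 0.15), the smallest p that 3 against 3 can give, and 0.600 between BRQ and vehicle. Since erythroid-like barcodes were called negative more often than others, these are shares of called singlets.

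Across the 19 clusters, the genes whose levels were most like *Klf1* included *Slc38a5* (Pearson r = 0.968), *Nxpe2* (0.963), *Gata1* (0.951) and *Slc25a21* (0.947), out of 6233 genes. Those most like *Hba-a1* included *Hbb-bs* (0.967), *Hba-a2* (0.951), *Paqr9* (0.884) and *Epn1* (0.823). *Klf1* itself stood at 0.977 with *Car1*, 0.824 with *Car2* and 0.614 with *Hba-a1*. The correlations are of log2(CPM + 1), the clusters share libraries, and they are given as descriptions.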

How the data were processed

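Droplet-based 3′ RNA-seq with hashtag antibodies was analysed for 3 pools of c-Kit-enriched BM. The deposited matrices hold raw UMI counts per gene and per hashtag, which the authors made with Cell Ranger 6.0.0 against mm10; the submitters' notes also name Seurat. No column went unused. Hashtags were called with HTODemux (Seurat 5.3.0, quantile 0.99). Barcodes with 500 to 7500 genes and at most 15% mitochondrial UMIs were kept, a transcript filter of the study read here as genes, and doublets were marked with Scrublet but not removed. Clustering (scanpy 1.11.5, Python 3.11.15) used 2000 variable genes, 30 components, 20 neighbours and Leiden resolution 0.8, without the 10 genes and 2 paralogs, and clusters were named from marker lists.

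Counts were summed per mouse and class, leaving out mice with under 10 cells, and tested with edgeR 4.0.16 (R 4.3.3; filterByExpr, TMM, quasi-likelihood), with DESeq2 1.42.0 as an alternative. The 3 groups of 3 mice were compared pairwise, and shares of cells by an exact permutation test. The labels state that each pool held 1 mouse per group, so pool number pairs the mice. Deviations from group means correlated between mice of a pool at -0.011 to 0.123 in erythroid-like, -0.011 to 0.094 in HSC/MPP-like and -0.052 to 0.337 in myeloid cells. The script was tested on simulated data. The genes, lists and tests were chosen with earlier results of these data known. Genes named from other lists were those called, or, where none was, the 2 with the highest mean CPM, and the 5 genes most like *Klf1* and *Hba-a1*. Gene positions matched the GRCm38 annotation for 32158 of 32285 IDs. Hashtag calls over the pool median (top tag at least 1.5 times the second) were added after seeing the data, as were the sub-clusters and the levels without the highest barcode. Some genes that these rules name are not reported here.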

Additional observations from a re-analysis of the deposited data

Results flagged for a closer look

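Globin UMIs were present in barcodes that the gene limit removes and that no comparison uses. In barcodes under 500 genes, *Hba-a1*, *Hba-a2*, *Hbb-bt* and *Hbb-bs* together made up 0.104%, 0.143% and 0.157% of UMIs in pools 1, 2 and 3. There were no control libraries to set these shares against. In the kept barcodes the 4 genes made up 0.0195%, 0.0125% and 0.0127%. Of the 6976 globin UMIs in the 5792 removed barcodes, 5840 were in 7 barcodes that were over 50% globin. Without the 11 barcodes over 10% globin the level was 1.12 UMIs per 10000, and without such barcodes that of the kept barcodes was 1.33. *Hba-a1* made up 57.6% of alpha-globin UMIs in the removed barcodes (95% Clopper-Pearson interval 55.8% to 59.3%) and 80.5% in erythroid-like cells.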

How the results depend on the processing

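Of 990 values of the members under alternatives, 943 stayed on their side of the threshold, 29 were weaker, 15 stronger and 3 reversed. Of the 60 member comparisons tested 7 were called, and 73 of 868 values of uncalled ones changed sign. The causes of the changes were not tested. Reversed were *Hba-a1* in erythroid-like cells between vehicle and NTB (-0.20, tags over the pool median without Scrublet-marked barcodes), *Blvrb* in myeloid cells between vehicle and NTB (0.30, filter read as 500 to 7500 UMIs) and *Hba-a1* in myeloid cells between BRQ and NTB mice (-1.41, members kept for clustering). The share of erythroid-like cells reversed to 1.15 (vehicle minus NTB) and -2.15 percentage points (BRQ minus vehicle) with tag ratios and to 0.0817 (BRQ minus NTB) with the UMI reading. These shares rest on at most 5 erythroid-like cells per mouse with tag ratios and at most 4 with the UMI reading.

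Genes called in erythroid-like cells, in the order vehicle minus NTB, BRQ minus vehicle and BRQ minus NTB, were 102, 27 and 23. DESeq2 called 43, 3 and 8, members kept for clustering 17, 1 and 5, and equal cells per mouse 28, 7 and 15. Without Scrublet-marked barcodes edgeR called 15, 0 and 0 (423 and 418 genes at an unadjusted p under 0.05 for the last 2), and at resolution 1.6 it called 0, 0 and 0 (250, 368 and 396). Tags over the pool median gave 0 (676) for BRQ minus vehicle and 197 for BRQ minus NTB, and without Scrublet-marked barcodes 0 (365), 2 and 49. No filter gave 63 and 66 in the last 2. Leaving out 1 mouse gave 29 to 137, 6 to 42 and 2 to 41.

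In HSC/MPP-like cells, 129, 4 and 108 genes became 43, 0 (94 at an unadjusted p under 0.05) and 41 with DESeq2, 19, 8 and 24 with the UMI reading, and 293 and 475 (against NTB) with members kept. DESeq2 gave no adjusted p to 7905 of 9945 genes for vehicle minus NTB and to 9062 for BRQ minus NTB. Its 43 and 41 calls thus come from fewer genes than those of edgeR. BRQ minus vehicle gave 12 without a filter, 2 without Scrublet-marked barcodes and 1 with either reading of tags over the pool median, and BRQ minus NTB 171 with those tags without Scrublet-marked barcodes. Leaving out 1 mouse gave 14 to 153, 1 to 11 and 63 to 139. In myeloid cells, 4209, 599 and 2875 became 0, 0 and 0 with tag ratios in edgeR (48, 38 and 46 unadjusted) and 143, 0 (395) and 56 with the UMI reading. BRQ minus vehicle gave 1138 without a filter, 1237 at resolution 1.6 and 904 with tags over the pool median, and BRQ minus NTB 5384 and 5411 with those tags, with and without Scrublet-marked barcodes. Leaving out 1 mouse gave 2692 to 4710, 157 to 877 and 1307 to 3489.

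With pool as a replicate block, paired within pools, counts were 99, 87 and 141 in erythroid-like, 215, 16 and 297 in HSC/MPP-like and 4710, 1246 and 3686 in myeloid cells. The summed level of the members in other cells was 0.849 UMIs per 10000 in the main reading, 1.39 with the UMI reading, 0.620 without Scrublet-marked barcodes, 0.520 with members kept and 1.23 at resolution 1.6. Globin in barcodes under the gene limit, a mean of 0.135% over pools, was 0.0113% without barcodes over 10% globin. Tag ratios could not be fitted for erythroid-like and HSC/MPP-like cells, nor the UMI reading for erythroid-like cells, since too few cells per mouse were left. Between 9 and 111 erythroid-like cells per mouse limit what the comparisons can detect.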
